A study of Danio rerio with 12 samples.

Results

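Transcript levels of whole zebrafish larvae homozygous for a mutation in *mia40a* were compared with those of wild-type larvae at 5 days post fertilization (dpf), before any food was given. The mutant group (Mut) was homozygous for the waw1 allele, labelled *mia40a*waw1/waw1, and the control group (WT) consisted of related larvae with the wild-type gene. Both groups had the AB background, and the 5 dpf pools were gathered and handled at the same time. Each group had 3 pools (Mut1 to Mut3 and WT1 to WT3), each pool held 5 whole larvae, and these 6 libraries are the 5 dpf samples among 12 in the study. The study describes its *mia40a* mutation, under the allele name bns292, as a frameshift deletion made with TALENs, and whether waw1 is the same allele is not given in the sources used here. The mutation is present in every cell of the larva, and RNA of whole animals was read, so a level sums over all tissues. All genes with a mean normalized value of at least 5 over the 6 pools were taken, which kept 22521 of 31953 genes, 20928 of them with a gene symbol. A normalized value is a gene's read number after scaling for library size, which the authors rounded to whole numbers.

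Mia40, named CHCHD4 in mammals, is the oxidoreductase of the mitochondrial intermembrane space assembly (MIA) pathway. Small proteins made in the cytosol enter the space between the mitochondrial membranes, where Mia40 forms disulfide bonds in them and so traps them there, and the sulfhydryl oxidase Erv1 (ALR, encoded by *GFER*) takes the electrons from Mia40. The substrates include subunits and assembly factors of the respiratory chain and the small Tim chaperones that carry other proteins to the inner membrane. Cells in which mitochondrial protein import or respiration is disturbed are known to raise a stress response that includes mitochondrial chaperones and, through the factor ATF4, genes of amino acid and one-carbon metabolism.

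The study used high-resolution melt analysis of fin tissue to genotype larvae in some experiments, and its methods do not say how the sequenced larvae were genotyped. The *mia40a* primer pair of that analysis is shown because it was designed for the mutated gene, and it reads, 5′ to 3′ and in lower case throughout:
*mia40a* forward: tgtttgggcggcatggccagt
*mia40a* reverse: gagccctttatctcctctttgc

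Summed over all genes, the values of a library came to between 16997847 and 18177809. The steps among low values put the reads on genes at 16.191 M to 20.469 M in 5 libraries (M for 1e6), and no such estimate was possible for Mut1. Pearson correlations of the log2 values across genes lay between 0.985 and 0.989 within a group and between 0.976 and 0.983 across the groups. Markers of liver, pancreas, intestine, eye, skeletal muscle, blood, skin, pigment cells and neurons were all detected. With 3 pools against 3, an exact permutation test of a single gene cannot give a p under 0.1. The tests below therefore come from a model fitted over all genes. Their p values set the difference between the groups against a spread between pools that is estimated partly from the other genes. Whether the pools came from separate clutches is not given in the sources used here.

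A gene is said to have passed where limma gave a Benjamini-Hochberg adjusted p under 0.05, and to have been called where its log2 fold change (Mut over WT, on the log2 of value plus 1) was also at least 0.9 in either direction, or 1.87-fold. Of the 22521 genes, 1350 passed (5.99%), 861 higher (3.82%) and 489 lower (2.17%) in Mut, and 4518 had an unadjusted p under 0.05 (20.1%). Called genes numbered 260 (1.15%), 137 higher (0.608%) and 123 lower (0.546%). Their Mut and WT values did not overlap, which was also true of 24.6% of all tested genes. The median log2 fold change over all tested genes was -0.001 and the median size of a change, without its sign, was 0.154. Without WT3 the called genes higher in Mut numbered 223, and without Mut2 they numbered 91.

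**Figure D1:**
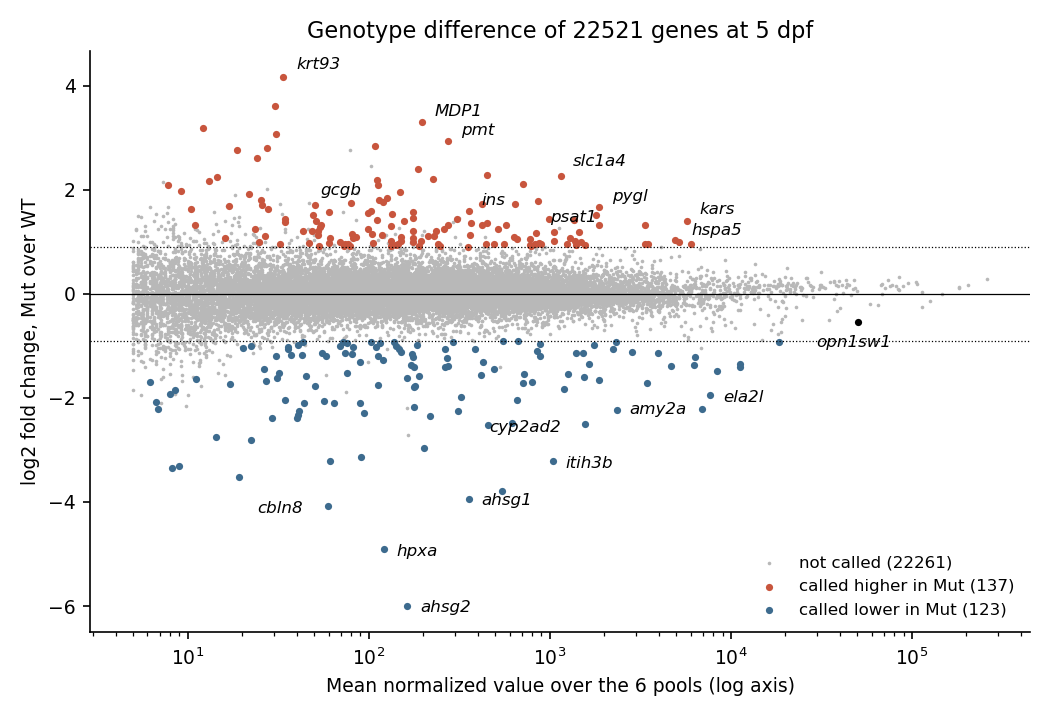
Log2 fold change of each gene (Mut over WT, vertical axis) against its mean normalized value over the 6 pools (horizontal log axis), 1 point per gene. Red and blue points are the 137 genes called higher and the 123 called lower in Mut, grey points the remaining genes, dotted lines the fold threshold of 0.9 in log2 units, and the black point is the cone opsin *opn1sw1*. Called genes lie at low and at high levels alike, and 46 of the 260 have a mean of at least 1000.

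The transcript of the mutated gene itself was higher in the mutants. *mia40a*, which carries the symbol *chchd4a*, had normalized values of 264, 262 and 261 in the Mut pools, against 82, 91 and 92 in the WT pools. The Mut pools differed by hardly anything among themselves and all lay far above the WT pools, a difference of 1.56 on the log2 scale with a standard error of 0.11 and an adjusted p of 4.28e-05. This level separates the 3 Mut pools from WT and does not test the protein.

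The partners of Mia40a were higher as well, and by less. The list of the MIA machinery also holds *chchd4a* itself. All 4 genes of that list passed, with a median log2 fold change of 0.68, and *chchd4a* was the single one called. *chchd4b*, the second zebrafish copy of the gene (*mia40b*), had values of 99, 132 and 126 in Mut and 75, 70 and 65 in WT (log2 fold change 0.75, adjusted p = 0.019). *GFER* had 197, 259 and 224 in Mut and 152, 151 and 141 in WT (0.60, adjusted p = 0.018). *AIFM1*, the apoptosis-inducing factor to which CHCHD4 binds in mammals, had 1475, 1651 and 1556 in Mut and 1034, 1030 and 1211 in WT (0.52, adjusted p = 0.00593). Values of the 4 genes, *chchd4a* included, did not overlap between the groups, which was also true of 24.6% of all tested genes. Without Mut2 or Mut3 2 of the 4 passed, and without the mean-variance trend in the model 1 did.

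Among the substrates of the pathway, 17 of 30 passed, all higher in Mut, with a median of 0.37. The smallest adjusted p belonged to *CHCHD2*, a small twin CX9C protein, with 1260, 1447 and 1286 in Mut against 765, 769 and 693 in WT (log2 fold change 0.84, adjusted p = 3.09e-04), and its paralog *chchd10* stood at 0.73 (adjusted p = 6.57e-04). *cox6b1*, a complex IV subunit, had 788, 850 and 748 in Mut and 451, 357 and 504 in WT (0.87, adjusted p = 0.00245). Its paralog *cox6b2* had higher values, overlapped between the groups and did not pass. It had 5920, 6671 and 6492 in Mut and 6077, 5388 and 5427 in WT (0.18, adjusted p = 0.237). *timm8b*, a small Tim chaperone, was 0.67 higher and *cox17*, the copper chaperone of complex IV, 0.69 higher. The other small Tim genes were closer to the threshold, *timm10* at 0.47 (adjusted p = 0.0233) and *timm9* at 0.35 (adjusted p = 0.0756). Without Mut2 6 of the 30 passed and without Mut3 7.

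Chaperones and proteases of mitochondria were among the genes with higher values. Of 18 such genes 9 passed, all higher in Mut, 4 were called and the median was 0.48. *lonp1*, the Lon protease that degrades damaged matrix proteins, had values of 843, 835 and 790 in Mut, against 313, 317 and 357 in WT (1.32, standard error 0.08, adjusted p = 2.40e-05). *hspd1*, the chaperonin Hsp60, had 4891, 5128 and 4420 in Mut and 1888, 1870 and 2034 in WT (1.32, standard error 0.08, adjusted p = 1.55e-05). These are gaps of more than the whole range of either group. Its cochaperonin *HSPE1* had a smaller fold change, with 1458, 1738 and 1403 in Mut and 946, 872 and 935 in WT (0.73, adjusted p = 0.00124).

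*hspa9*, the Hsp70 of the matrix and motor of import, had 7864, 8482 and 7399 in Mut and 4124, 4113 and 4016 in WT (0.95, standard error 0.07, adjusted p = 5.80e-05). An AAA protease gene listed as *afg3l1*, *si:ch1073-174d20.2*, had 907, 900 and 787 in Mut and 389, 388 and 448 in WT (1.08, adjusted p = 1.51e-04). The related proteases did not pass, with log2 fold changes of 0.13 for *AFG3L2*, 0.06 for *spg7* and 0.21 for *yme1l1b*, and their difference from it was not tested. *CLPP*, the proteolytic subunit of the ClpXP protease, was 0.47 higher (adjusted p = 0.00842), and the disaggregase gene *clpb* stood at -0.11 (adjusted p = 0.474). Summed over the list, the Mut pools stood at 172%, 182% and 162% of the WT mean and the WT pools between 97.8% and 101%. The 4 calls were made with any single pool left out.

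Genes of protein import and of the mitochondrial ribosome shifted broadly and by small amounts. All 74 tested genes of the mitochondrial ribosome had positive log2 fold changes and 32 passed, with a median of 0.36 and none called. *mrpl38* led them, with 827, 889 and 805 in Mut and 473, 519 and 482 in WT (0.77, standard error 0.08, adjusted p = 4.31e-04), and *MRPL40* was lowest, with 263, 286 and 265 in Mut and 293, 260 and 244 in WT (0.03). Of 30 import genes 14 passed, all higher, with a median of 0.35. *PMPCB*, a subunit of the peptidase that cuts off import signals, had 893, 956 and 844 in Mut and 550, 583 and 543 in WT (0.68, adjusted p = 8.33e-04), *grpel1*, the exchange factor of Hspa9, was 0.65 higher and *SAMM50*, which inserts proteins into the outer membrane, 0.62 higher (adjusted p = 0.00265). The number that passed depended on the pools: without Mut2 it was 4 of 74 ribosomal and 6 of 30 import genes, without Mut3 it was 6 and 7, and without WT2 19 ribosomal genes passed. Without the mean-variance trend in the model it was 3 and 5.

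Respiratory chain genes of the nucleus passed in part, and none of those of the mitochondrial genome did. Of the nuclear subunit genes, 14 of 33 of complex I, 2 of 3 of complex II, 7 of 8 of complex III, 7 of 18 of complex IV and 7 of 16 of complex V passed with higher values in Mut, and a single complex IV gene, *COX5B (ENSDARG00000011208)*, passed with lower ones (-0.35, adjusted p = 0.0285). The medians of the log2 fold changes were 0.29, 0.35, 0.40, 0.25 and 0.32 in that order of complexes, and none was called. A second *COX5B* entry, ENSDARG00000015978, had higher values in Mut and did not pass, with 4934, 5671 and 5527 in Mut and 4545, 4484 and 4544 in WT (0.25, adjusted p = 0.0749). The related *cox5b2* passed higher (0.67, adjusted p = 0.0131). The complex II genes were *SDHA* (0.35) and *sdhb* (0.36), both of its catalytic part. *CYC1*, the cytochrome c1 of complex III, had 4104, 4611 and 4393 in Mut and 2915, 3024 and 3036 in WT (0.54, adjusted p = 0.0014). *atp5mc1*, which encodes the ring subunit of the ATP synthase, had 6159, 6923 and 6171 in Mut and 3650, 3982 and 3988 in WT (0.73, adjusted p = 4.84e-04). *ndufa10* of complex I was 0.37 higher (adjusted p = 0.00898), and *cycsb*, a cytochrome c gene outside the lists and picked after its values were seen, was called, with 5678, 7947 and 6162 in Mut and 3336, 2932 and 3365 in WT (1.03, adjusted p = 8.56e-04).

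Of the 13 protein-coding genes of mitochondrial DNA, 0 passed, while 7 did not overlap between the groups, as was true of 24.6% of all tested genes. Those 7 went both ways, *mt-co2* and *MT-CO3* being lower and the others higher in Mut. The 13 genes had a median log2 fold change of 0.09. They ran from *mt-co2*, with 98121, 105528 and 104846 in Mut and 141588, 114748 and 115544 in WT (-0.26, adjusted p = 0.249), to *mt-co1*, with 270134, 297481 and 290947 in Mut and 242517, 222255 and 236975 in WT (0.29, adjusted p = 0.225). With voom weights in place of the trend *mt-co1* did pass. The difference between nuclear and mitochondrial genes was not tested. For complex I the count was 0 of 33 without Mut2 and without Mut3, 5 without WT1, 2 without WT2 and 7 without WT3. For complex III it was 4 of 8 without Mut2 and without Mut3, and for complex II it was 0 of 3 without either. For complex IV it was 1 without Mut2, 0 without Mut3, 4 without WT1 and 2 without WT2 or WT3, *COX5B (ENSDARG00000011208)* did not pass without WT1 or any Mut pool, and for complex V 12 without Mut1, 2 without Mut2, 2 without Mut3 and 3 without WT2. Of 17 genes that maintain or express mitochondrial DNA only *lrpprc*, which stabilizes mitochondrial mRNAs, passed (0.52, adjusted p = 0.00116), with a median of 0.23, and of 9 genes of fission and fusion 0 passed, with a median of 0.15.

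**Figure D2:**
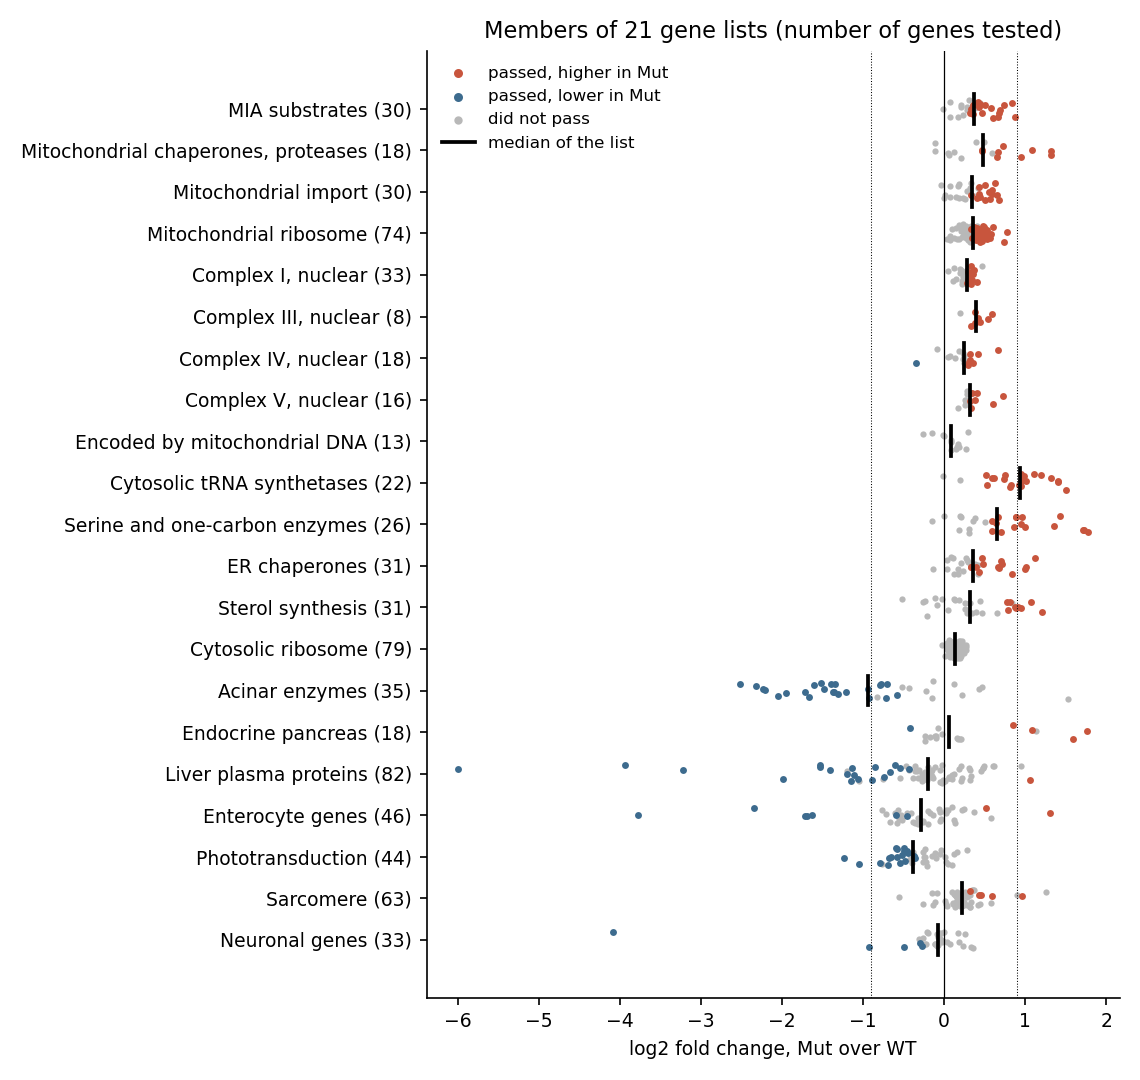
Log2 fold changes (Mut over WT, horizontal axis) of the tested members of 21 gene lists, 1 point per gene, with the number of genes tested after each name. Red and blue points passed with higher and lower values in Mut, grey points did not pass, black bars are list medians and dotted lines mark 0.9 in either direction. Cytosolic tRNA synthetases have a median of 0.94, acinar enzymes of -0.94 and genes encoded by mitochondrial DNA of 0.09.

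Enzymes that charge tRNAs in the cytosol were higher almost throughout. Of 22 cytosolic aminoacyl-tRNA synthetase genes 20 passed, all higher in Mut, and 12 were called, in the full data and with any single pool left out. The summed values of the list were 198%, 200% and 182% of the WT mean in the Mut pools and between 99.3% and 101% in the WT pools. *kars*, the lysyl-tRNA synthetase, had 9251, 8646 and 7084 in Mut and 3147, 3095 and 3124 in WT (1.41, adjusted p = 3.34e-05). The exceptions were *dars*, with 3000, 3219 and 3011 in Mut and 2998, 2670 and 2404 in WT (0.20, adjusted p = 0.226), and *tars3*, with 472, 489 and 546 in Mut and 536, 494 and 491 in WT (-0.01). *tars3* is a paralog of *tars*, and *tars* had 2781, 2864 and 2384 in Mut and 963, 890 and 967 in WT (1.51, adjusted p = 1.29e-05). The mitochondrial synthetases gave 4 of 15 passed, with a median of 0.29: *lars2* (0.95), *YARS2* (0.59), *IARS2* (0.38) and *hars* (0.99), which stands in both lists. Their number was 1 without Mut1, without Mut2 or without WT1 and 2 without Mut3 or WT3.

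Genes that make serine and pass on its one-carbon unit had the highest median of the metabolic lists. Of 26 such genes 16 passed, all higher, and 8 were called, with a median of 0.66. The serine synthesis gene *psat1* had the highest fold change of the list, with 1389, 1415 and 1184 in Mut and 389, 406 and 362 in WT (1.78, standard error 0.09, adjusted p = 7.71e-06). Of the same pathway *phgdh*, the first step, had 1488, 1600 and 1230 in Mut and 497, 572 and 524 in WT (1.43, adjusted p = 4.55e-05). *PSPH*, also of serine synthesis, had a smaller fold change (0.59, adjusted p = 0.0143). In the folate cycle the mitochondrial and the cytosolic enzymes both moved. *mthfd1l* and *aldh1l2* of mitochondria were 1.73 and 1.35 higher, and *shmt1* and *aldh1l1* of the cytosol were 0.96 and 1.00 higher. Purine synthesis, which uses these units, was represented in the pigment cell list by *atic*, with 984, 1123 and 988 in Mut and 527, 546 and 554 in WT (0.92, adjusted p = 1.51e-04), and *gart* (0.66, adjusted p = 0.00317), and these were the 2 genes of 20 in that list (median 0.05) that passed. *PAICS*, another purine synthesis gene of that list, overlapped between the groups and did not pass (0.44, adjusted p = 0.0966). Without Mut2 *atic* was no longer called.

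Genes listed as targets of ATF4 were split. This list leaves out the tRNA synthetase, serine and one-carbon genes counted above, such as *asns* (1.72, adjusted p = 1.41e-04). Its counts therefore depend on how the lists were drawn. Of 29, 10 passed, all higher in Mut, 3 were called, and the median was 0.19. *slc1a4*, a transporter of serine, alanine and other neutral amino acids, had the highest fold change of the list, with 2032, 2056 and 1625 in Mut and 370, 409 and 410 in WT (2.26, standard error 0.10, adjusted p = 3.55e-06). *sesn2*, an inhibitor of the growth kinase complex mTORC1, had 208, 245 and 231 in Mut and 84, 94 and 81 in WT (1.39, adjusted p = 1.66e-04), and the stress factors *atf3* and *atf5b* were 0.96 and 0.82 higher.

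Other known members of that response did not pass, and their pools mostly overlapped. *DDIT3*, which encodes the pro-apoptotic factor CHOP, had 737, 708 and 721 in Mut and 684, 731 and 722 in WT (0.02, adjusted p = 0.91). *CHAC1*, a glutathione-degrading enzyme, had 5315, 6734 and 6141 in Mut and 6522, 5528 and 4634 in WT (0.13, adjusted p = 0.611). *ppp1r15a*, the phosphatase subunit that ends the eIF2 response, stood at -0.06 and the hormone gene *fgf21*, with values of at most 16, at -0.02. *atf4b* itself, with 4580, 4689 and 4786 in Mut and 4089, 4091 and 4137 in WT, did not overlap between groups and did not pass (0.19, adjusted p = 0.105). Without Mut2 6 of the 29 passed.

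Chaperones of the endoplasmic reticulum (ER) were higher too. Of 31 ER folding genes 14 passed, all higher in Mut, 3 were called and the median was 0.36. *hspa5*, the ER Hsp70 known as BiP, had 7211, 6784 and 6609 in Mut and 3345, 3465 and 3460 in WT (1.00, standard error 0.07, adjusted p = 2.90e-05). *manf*, a secreted factor of the ER stress response, had 486, 504 and 492 in Mut and 237, 225 and 219 in WT (1.12, adjusted p = 5.80e-05), and *hyou1*, the exchange factor of BiP, was 1.02 higher. The pools of each group stood close together in all 3. The ER thiol oxidases and isomerases had smaller fold changes, *PDIA4* passing at 0.68 while *P4HB* (0.28), *PDIA3* (0.17) and *ERO1B* (0.17) did not. Without Mut2 8 of the 31 passed and without Mut3 9.

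Further along the secretory pathway, 11 of 54 genes passed, all higher, with a median of 0.15, led by the stress factor *XBP1*, with 4561, 4889 and 4305 in Mut and 3131, 2675 and 3125 in WT (0.62, adjusted p = 0.002). That count was 5 without Mut1 or WT2 and 2 without Mut2 or Mut3. In the cytosol, 4 of 28 heat shock genes passed, all higher, with a median of 0.16, among them *hspa4a* (0.64) and the small heat shock gene *HSPB8* (0.57). *hsp90aa1.1*, the Hsp90 of developing muscle, had 838, 1198 and 1108 in Mut and 489, 485 and 527 in WT (1.05, adjusted p = 9.06e-04), and its muscle partner *unc45b*, the myosin chaperone, had 596, 695 and 641 in Mut and 276, 309 and 418 in WT (0.96, adjusted p = 0.00352). *hsp70.3* had 127, 137 and 173 in Mut and 26, 52 and 83 in WT (1.56, adjusted p = 0.0239), a gap smaller than the spread within WT, and it was not called without Mut2 or without Mut3. The constitutive *hsp90ab1* stood at 0.11 and did not pass.

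Antioxidant genes gave 14 higher and 1 lower of 41, with a median of 0.25. *prdx1*, a peroxiredoxin, had 975, 919 and 779 in Mut and 435, 424 and 418 in WT (1.06, adjusted p = 1.66e-04), and thioredoxin, *txn*, had 579, 553 and 431 in Mut and 313, 297 and 285 in WT (0.79, adjusted p = 0.00359). Those that passed include both steps of glutathione synthesis, with *gclm*, the modifier subunit of the first enzyme, at 0.69 and *GSS* at 0.66. *gpx4a*, a glutathione peroxidase, was the gene that was lower (-0.68, adjusted p = 0.0412), with 3906, 5085 and 4745 in Mut and 8617, 5376 and 8303 in WT, and WT2 lay close to the Mut pools. Its paralog *gpx4b* passed higher, with 2815, 3300 and 2806 in Mut and 1965, 1864 and 1850 in WT (0.65, adjusted p = 0.00123). Without Mut2 4 genes of the list passed higher, without Mut3 7 and without WT2 8, *gpx4a* did not pass without WT1, WT3 or any Mut pool, and 3 genes passed lower without WT2.

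In energy and lipid metabolism most genes did not pass, although the shares that passed higher in glycolysis, the tricarboxylic acid cycle and fatty acid oxidation lay above the 3.82% of all genes. Of 41 genes of glycolysis and glycogen 9 passed higher and 1 lower, with a median of 0.03. *pygl*, the liver glycogen phosphorylase that releases glucose from glycogen, stood out, with 2555, 2992 and 3020 in Mut and 877, 787 and 1036 in WT (1.67, standard error 0.11, adjusted p = 2.63e-05). The muscle phosphofructokinase *pfkmb* was 0.73 higher and the enolase *eno1b* 0.33 lower, at a log2 fold change of -0.33 (adjusted p = 0.0488). Of 7 genes of gluconeogenesis 0 passed, with a median of -0.09, *pck1* for example with 5477, 6917 and 7142 in Mut and 8046, 4299 and 9402 in WT (-0.09), where WT2 was the lowest of all pools. The tricarboxylic acid cycle gave 11 higher and 1 lower of 30, with a median of 0.24, and fatty acid oxidation 7 higher of 32, with a median of 0.20. Of 21 genes of fatty acid synthesis and storage *PLIN3*, a lipid droplet protein, passed (0.61, adjusted p = 0.0299), and their median was -0.11. Without Mut2 2 glycolytic genes, 4 of the tricarboxylic acid cycle and 1 of oxidation passed higher, and without Mut3 2, 4 and 2. Without WT2 7 of the cycle passed, 3 of oxidation passed without Mut1, WT1 or WT2, and *PLIN3* did not pass without WT2 or any of the Mut pools. Without WT2, 3 genes of fatty acid synthesis and 2 of oxidation passed lower. The enolase did not pass without Mut2, Mut3 or WT1, and the lower gene of the cycle, *pdha1b* (-0.50, adjusted p = 0.0287), a pyruvate dehydrogenase subunit, did not pass without WT1, WT2 or any Mut pool.

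Sterol synthesis was uneven between pools. Of 31 genes 9 passed, all higher in Mut, with a median of 0.32. At the head of the pathway *acat2* had 728, 757 and 640 in Mut and 397, 427 and 411 in WT (0.78, adjusted p = 7.57e-04), and *hmgcs1* had 2280, 2231 and 1663 in Mut and 827, 1070 and 1337 in WT (0.95, adjusted p = 0.00944). At its end *lss*, which closes the sterol rings, had 288, 263 and 179 in Mut and 69, 106 and 149 in WT (1.204, adjusted p = 0.024). Mut3 was the lowest Mut pool and WT3 the highest WT pool in these last 2 genes. *hmgcra*, the rate-limiting reductase, overlapped between the groups, with 2498, 1936 and 1563 in Mut and 1001, 1438 and 1994 in WT (0.47, adjusted p = 0.286). Called genes of the list numbered 4 in the full data, 0 without Mut1 or Mut2, 1 without WT1 and 7 without Mut3 or WT3. Those that passed numbered 3 without Mut1, 2 without Mut2 and 5 without WT1.

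Proteins that the liver secretes into the blood included the lowest fold changes of all lists. Their list also holds *fabp10a*, the hepatocyte marker given below. Of the 82 genes of the list 19 passed lower and 1 higher, 12 and 1 of them called, and the median was -0.20. In bulk RNA of whole larvae, fewer cells of a type and less RNA per cell cannot be told apart. *ahsg2*, a fetuin-A gene, had values of 4, 5 and 3 in Mut, against 262, 271 and 437 in WT (-5.998, standard error 0.25, adjusted p = 3.52e-06). Its paralog *ahsg1* had 38, 53 and 37 in Mut and 685, 509 and 827 in WT (-3.94, adjusted p = 6.94e-06). In the mutants both fetuin-A genes thus lay below every WT pool by a wide margin, and the fetuin-B gene *fetub* had 13079, 14850 and 14086 in Mut and 21001, 20472 and 29526 in WT (-0.74, adjusted p = 0.0098).

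The heme-binding hemopexin gene *hpxa* had 9, 4 and 7 in Mut and 173, 167 and 372 in WT (-4.91, standard error 0.35, adjusted p = 4.40e-05). It stands in no list and is not among the genes counted above. *hp*, which encodes haptoglobin, the hemoglobin-binding protein, had 333, 352 and 399 in Mut and 663, 595 and 702 in WT (-0.85, adjusted p = 8.59e-04). The inter-alpha-trypsin inhibitor heavy chains, which stabilize hyaluronan, were graded. *itih3b* had 186, 199 and 208 in Mut and 1720, 1552 and 2354 in WT (-3.22, adjusted p = 3.52e-06), *itih3a* stood at -1.99 and *ITIH4* at -1.14, while *itih2* did not pass, with 1612, 1572 and 1513 in Mut and 1650, 1862 and 2517 in WT (-0.34, adjusted p = 0.174).

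Several carriers of small molecules were among the genes that passed lower. *ttr*, transthyretin, which carries thyroid hormone, had 340, 314 and 465 in Mut and 1136, 979 and 1095 in WT (-1.54, adjusted p = 1.66e-04). *gc*, the vitamin D binding protein, had 834, 769 and 992 in Mut and 1739, 1676 and 2375 in WT (-1.15, adjusted p = 0.00105), and *rbp4*, the retinol carrier of plasma, had 16807, 17835 and 16482 in Mut and 23602, 22536 and 22554 in WT (-0.43, adjusted p = 0.00876). Ceruloplasmin, *cp*, which carries copper, had 1591, 1286 and 1358 in Mut and 2774, 2120 and 4266 in WT (-1.06, adjusted p = 0.014), with the spread within WT wider than the gap between the groups. The cellular retinol-binding protein gene *rbp2b*, which the study describes as expressed mainly in the liver, had 306, 326 and 513 in Mut and 1235, 1044 and 1357 in WT (-1.70, adjusted p = 5.06e-04). It does not stand in the list of secreted proteins and is counted among the enterocyte genes below.

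Many other secreted products did not pass. Among coagulation genes *fga*, *fgb* and *f2* had log2 fold changes of 0.21, 0.21 and 0.12, and *fgb* for example had 2792, 3049 and 2960 in Mut and 2335, 2149 and 3246 in WT. Other coagulation genes did pass lower, *f7i* at -1.20 (adjusted p = 0.0368) and *serpind1* at -0.67 (adjusted p = 0.022). Transferrin, *tfa*, had 15715, 19129 and 19753 in Mut and 19150, 19084 and 28653 in WT (-0.27, adjusted p = 0.366). *apoa1a*, a gene for the main protein of high density lipoprotein, had 22702, 24160 and 24276 in Mut and 14376, 14642 and 22887 in WT (0.49, adjusted p = 0.102). Its paralog *apoa1b* had 52533, 62693 and 64310 in Mut and 61607, 61568 and 86910 in WT (-0.21, adjusted p = 0.465). *agt*, angiotensinogen, was the single secreted gene that passed higher, with 1472, 1914 and 1880 in Mut and 717, 818 and 988 in WT (1.06, adjusted p = 0.00127).

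The summed values of the liver list overlapped between the groups, at 78.8%, 87% and 85.0% of the WT mean in the Mut pools and at 93.1%, 84.5% and 122% in the WT pools, and WT3 was the high one. *fabp10a*, the fatty acid binding protein used as a marker of zebrafish hepatocytes, had 4870, 5695 and 5436 in Mut and 6987, 8973 and 8569 in WT (-0.61, adjusted p = 0.00697). Without WT3 9 of these liver genes passed higher in Mut in place of 1, and without Mut1 or Mut2 2 did.

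Liver enzymes that passed went in both directions. Of 53, 5 passed lower and 3 higher, with a median of 0.05. *cyp2ad2*, a cytochrome P450 gene, had 458, 417 and 512 in Mut and 2670, 1952 and 3403 in WT (-2.50, adjusted p = 3.34e-05). The carboxylesterases *ces3* and *ces2* stood at -1.83 and -1.39, and *tdo2b*, which starts the breakdown of tryptophan, at -1.56. *abcb11b*, a copy of the bile salt export pump, went the other way, with 1184, 807 and 1057 in Mut and 473, 464 and 659 in WT (0.93, adjusted p = 0.00814), as did *dao.1*, a D-amino acid oxidase (1.24, adjusted p = 0.0244). Without WT3 11 genes of this list passed higher, and without Mut2 1. Those called higher numbered 2, and 5 without WT3, 1 without Mut1, Mut2 or WT2, and 0 without Mut3 or WT1.

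**Figure D3:**
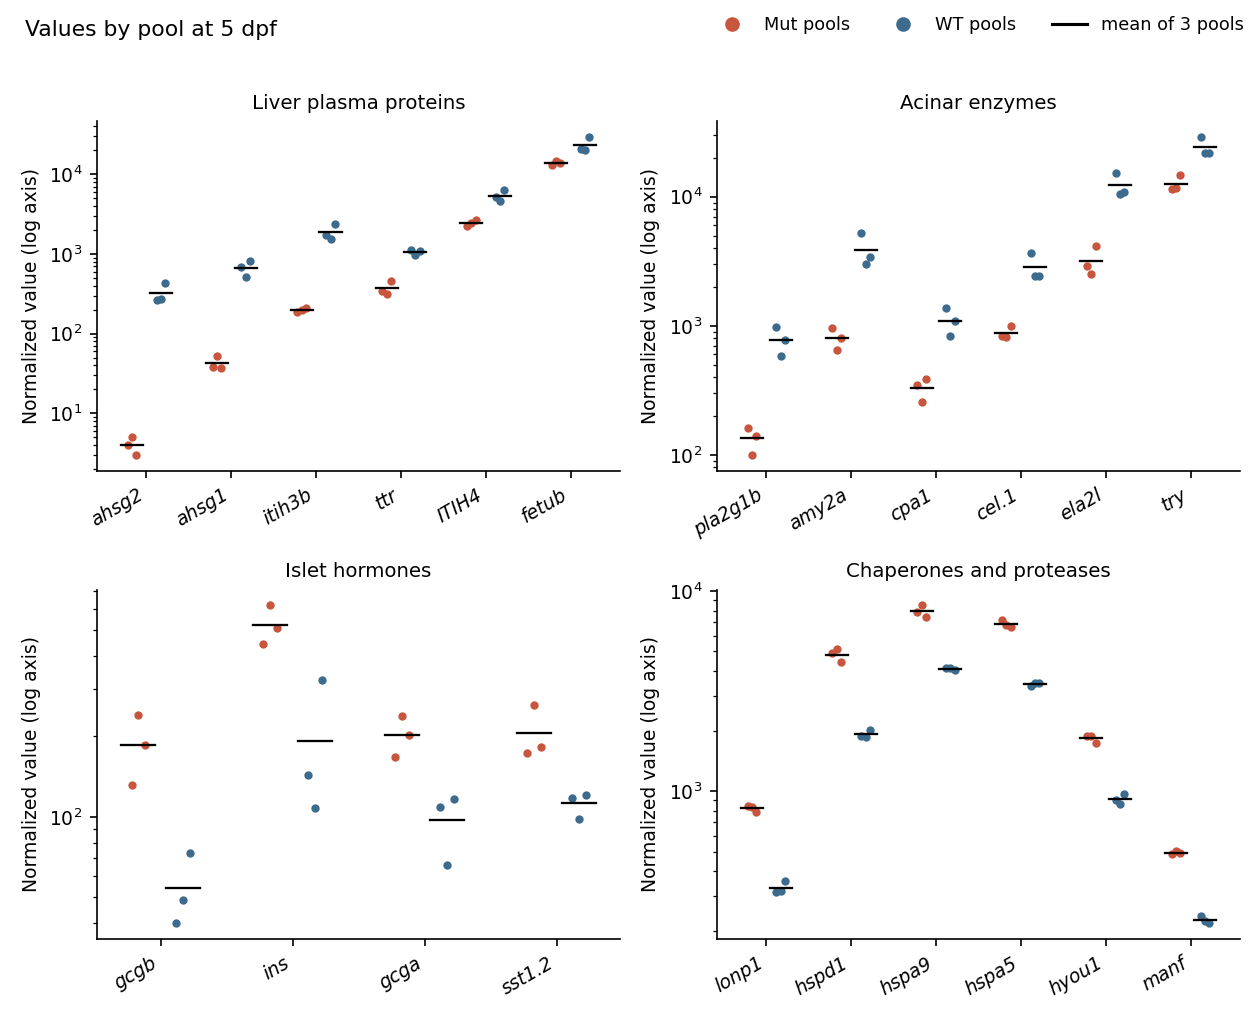
Normalized values by pool (log axes) of named liver plasma proteins, acinar enzymes, islet hormones, and chaperones and proteases, with 3 Mut pools in red left of 3 WT pools in blue for each gene and a bar at each mean. The groups do not overlap for any gene drawn, with the widest gap for *ahsg2*, from 3 to 5 in Mut and from 262 to 437 in WT, and the widest spread within WT, on the log axis, for *ins*.

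Enzymes of the exocrine pancreas had the lowest median of the 52 lists. Of 35 genes of acinar cells, which make the digestive enzymes, 24 passed, all lower in Mut, 19 were called and the median was -0.94. The summed values were 43.6%, 43.9% and 53.9% of the WT mean in the Mut pools and 124%, 87.1% and 88.8% in the WT pools, so the groups stood clear of each other and WT1 was highest. *pla2g1b*, the pancreatic phospholipase A2, had 161, 100 and 141 in Mut and 977, 579 and 774 in WT (-2.52, standard error 0.20, adjusted p = 1.16e-04). The starch-digesting amylase gene *amy2a* had 961, 650 and 804 in Mut and 5240, 2992 and 3383 in WT (-2.24, adjusted p = 1.66e-04). The carboxypeptidase gene *cpa1* and the lipase gene *cel.1* stood at -1.71 and -1.66.

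The fold changes of acinar genes differed. The trypsin gene *try* had 11540, 11735 and 14645 in Mut and 29034, 21958 and 21756 in WT (-0.94, standard error 0.13, adjusted p = 0.00266). *cpa5*, a carboxypeptidase also known from mast cells of zebrafish, did not pass, with 5162, 5270 and 6435 in Mut and 8028, 6090 and 5655 in WT (-0.22, adjusted p = 0.388). The *CELA1* copies, whose shared reads were left out of the counts, ran from -2.32 to 0.43. With any single pool left out between 20 and 24 of the 35 passed lower.

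Of 19 genes of pancreatic transcription factors 2 passed, both higher, with a median of 0.24: *gata4*, with 43, 41 and 56 in Mut and 24, 29 and 21 in WT (0.89, adjusted p = 0.0425), and *RBPJL*, a subunit of the acinar PTF1 complex, with 24, 17 and 23 in Mut and 5, 9 and 1 in WT (2.16, adjusted p = 0.0429). Both had values of at most 56 and did not pass when any of the Mut pools or WT1 was left out.

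Islet hormone genes were higher in Mut. Of 18 endocrine genes 4 passed higher and 1 lower, with 3 called higher and a median of 0.06. *gcgb*, a glucagon gene, had 132, 241 and 185 in Mut and 40, 49 and 73 in WT (1.77, standard error 0.25, adjusted p = 0.00329), and its copy *gcga* had 168, 239 and 203 in Mut and 109, 66 and 117 in WT (1.08, adjusted p = 0.0162). *ins*, preproinsulin, had 442, 618 and 508 in Mut and 144, 108 and 324 in WT (1.59, standard error 0.32, adjusted p = 0.0176). Mut2 was the highest pool for each of these hormones and WT3 the highest WT pool for *ins*.

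The somatostatin genes showed the same direction, *sst1.2* with 173, 262 and 182 in Mut and 118, 98 and 121 in WT (0.85, adjusted p = 0.0163) and *sst2*, which stands in no list and was picked after its values were seen, with 75, 115 and 83 in Mut and 22, 28 and 41 in WT (1.57, adjusted p = 0.00564). The gene that was lower, *NEUROD1*, is a transcription factor of islets and also of the retina and brain, with 1702, 1743 and 1722 in Mut and 2348, 2307 and 2237 in WT (-0.42, adjusted p = 0.00384). The early pancreatic factor *pdx1* had 50, 61 and 65 in Mut and 44, 30 and 53 in WT (0.49, adjusted p = 0.267). Without Mut2 1 endocrine gene passed higher and without Mut3 2, and without the mean-variance trend 0 did. Those called numbered 1 without Mut2 and 5 without WT3.

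For intestinal genes WT2 lay with the Mut pools. Of 46 genes of enterocytes 7 passed lower and 2 higher, with a median of -0.28, and the summed values were 75.2%, 76.5% and 74.3% of the WT mean in the Mut pools and 113%, 70.7% and 116% in the WT pools. The peptide transporter *slc15a1b* shows the pattern, with 1250, 1297 and 1424 in Mut and 2605, 1089 and 2882 in WT (-0.61, adjusted p = 0.274), as does the sodium-glucose transporter *SLC5A1*. The genes that passed lower lay below WT2 as well. *chia.3*, an acidic chitinase gene, had 52, 175 and 32 in Mut and 1304, 501 and 1225 in WT (-3.78, standard error 0.54, adjusted p = 0.00311), and *mep1b*, the meprin metalloprotease of the brush border, had 114, 59 and 41 in Mut and 508, 191 and 391 in WT (-2.35, adjusted p = 0.00681). *c6ast3* and *c6ast4*, astacin-like proteases, stood at -1.63 and -1.72, and the alkaline phosphatase *alpi.2* and the cathepsin *ctsl.1* at -0.60 and -0.46. The remaining lower gene was *rbp2b*, given above (-1.70). The higher genes were *fabp1b.2*, with values of at most 17 (1.31), and *agr2* (0.52). Without WT2 19 of the 46 passed lower, 10 of them called, and the higher genes numbered 0 without Mut2, Mut3, WT1 or WT2 and 1 without Mut1 or WT3.

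**Figure D4:**
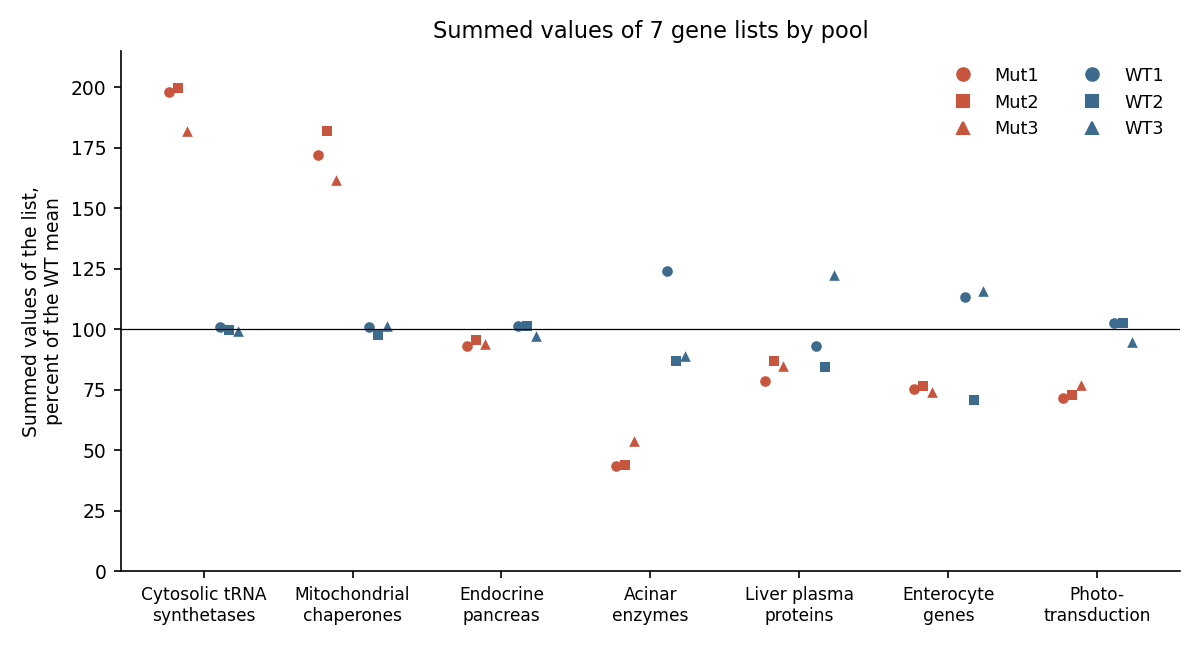
Summed normalized values of 7 gene lists in each pool, as a percent of the mean of the 3 WT pools (vertical axis, line at 100), with Mut pools in red left of WT pools in blue and a symbol for each pool number. Cytosolic tRNA synthetases lie between 182% and 200% in Mut, acinar enzymes between 43.6% and 53.9%, and for enterocyte genes WT2 lies at 70.7%, below the Mut pools.

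In the eye, phototransduction genes were lower by a moderate amount. Of 44 genes 19 passed, all lower in Mut, 2 were called and the median was -0.38, and the summed values were 71.6%, 73.1% and 76.9% of the WT mean in the Mut pools and 103%, 103% and 94.7% in the WT pools. A division into genes of cones and of rods was made after the values were seen. Of 18 cone genes 12 passed lower, with a median of -0.56, and of 10 rod genes 0 passed, with a median of -0.21. *GNAT2*, the transducin of cones, had 12347, 12799 and 13070 in Mut and 22018, 20791 and 18936 in WT (-0.69, adjusted p = 9.33e-04). Its rod counterpart *gnat1* had 2240, 2397 and 2624 in Mut and 2819, 2997 and 2872 in WT (-0.26, adjusted p = 0.0699). All Mut pools were below all WT pools for both.

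Opsins of cones and rods were as follows. The ultraviolet cone opsin *opn1sw1* had 39869, 40088 and 43189 in Mut and 61512, 61832 and 56274 in WT (-0.54, adjusted p = 0.00674), and the green cone opsin *opn1mw2* had 155, 194 and 130 in Mut and 502, 364 and 282 in WT (-1.23, adjusted p = 0.00652). Rhodopsin, *rho*, of rods overlapped between the groups, with 33947, 35125 and 38054 in Mut and 37551, 41716 and 36211 in WT (-0.11, adjusted p = 0.569). The cone opsin kinases *grk7b* and *grk7a* stood at -1.05 and -0.69, the cone transducin subunit *gnb3b* at -0.65 and the recoverin *rcvrna* at -0.58, all past the threshold. Summed over the 18 cone genes the Mut pools held 123948, 127033 and 132564 and the WT pools 197088, 191151 and 177541. Over the 10 rod genes the sums were 49215, 50893 and 54861 in Mut and 54812, 59920 and 53138 in WT, which overlap. Between 11 and 14 cone genes and 0 rod genes passed with any single pool left out. The difference between cone and rod genes was not tested. Lens crystallins, with 55 genes tested and a median of 0.03, gave 1 higher (*crygm7*, with values of at most 5 in WT) and 1 lower (*crygn1*, -1.20). Without WT3 3 crystallins passed higher, without WT1 3 passed lower and without Mut2 0 did.

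**Figure D5:**
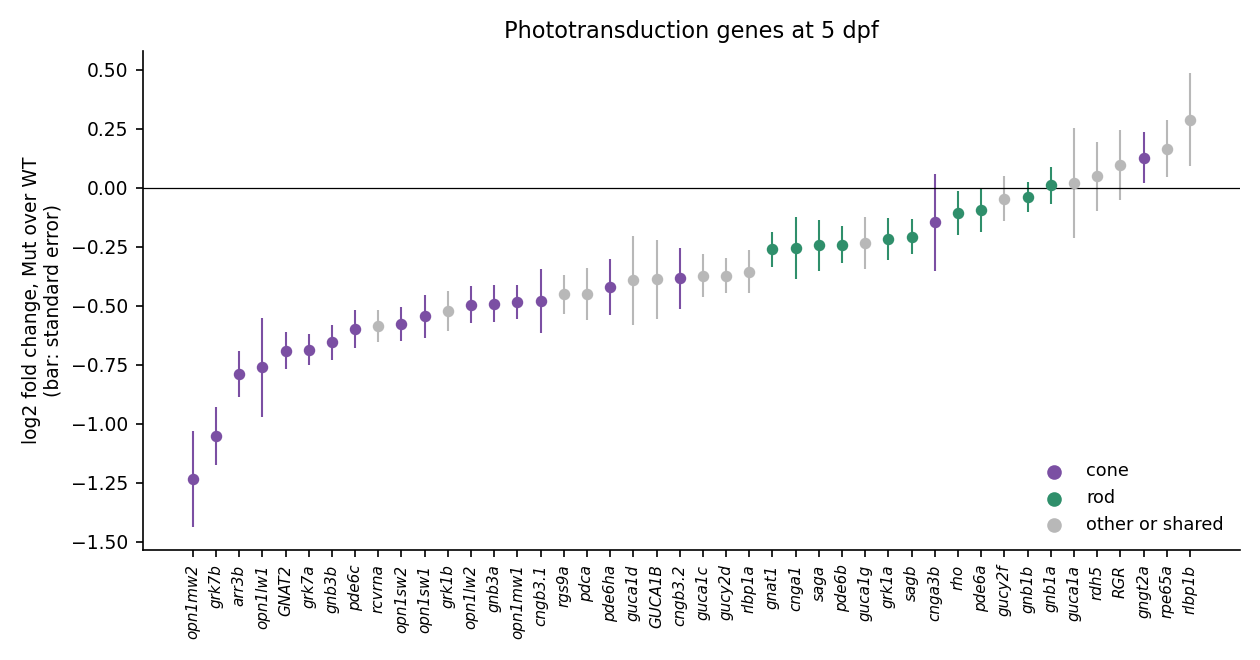
Log2 fold changes (Mut over WT, vertical axis, bars of 1 standard error) of 44 phototransduction genes in ascending order, with genes of cones in purple, of rods in green and others in grey. Cone genes run from -1.23 to 0.13 with a median of -0.56, and rod genes from -0.26 to 0.01 with a median of -0.21.

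The shares of sarcomere and keratinocyte genes that passed higher lay above the 3.82% of all tested genes. Those of immune and neuronal genes that passed lower lay above the 2.17% of all tested genes. Even so, most genes of muscle, skin, blood and brain did not pass. Of 63 sarcomere genes 5 did, all higher, with a median of 0.22: *unc45b*, the single call, the troponin *tnnc1a* (0.59), nebulin *NEB* (0.46), the actin *actc1a* (0.44) and the actinin *actn2b* (0.32). That count was 9 and 10 without Mut1 and WT3, 1 without Mut2, Mut3 or WT1, and 2 without WT2, with 3 called without WT3 and 0 without WT1. The myosin heavy chain genes *vmhcl* (1.18, adjusted p = 0.0142) and *myhz1.1l* (1.32, adjusted p = 0.033) were also called higher. Both stand in no list and were picked after their values were seen. WT3 was the highest WT pool for both, at 987 and 439. Of 12 erythroid genes 0 passed (median -0.001), and of 23 neuropeptide genes 0 passed (median -0.05). Of 35 keratinocyte genes 3 passed higher and 1 lower, with a median of -0.04. The higher ones were *krt93*, with values of at most 7 in WT (4.16), *agr2* (0.52), which also stands in the enterocyte list, and *krt1-19d* (0.38). The lower gene, *krt17*, had 13491, 14427 and 13431 in Mut and 18805, 19839 and 16231 in WT (-0.40, adjusted p = 0.0265). It did not pass without WT1 or any Mut pool, 3 genes passed lower without WT3, and 1 passed higher without Mut3.

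Among 26 immune genes 2 passed, both lower, with a median of -0.21. *lect2l*, a leukocyte chemotactic factor gene, had 67, 97 and 177 in Mut and 539, 399 and 596 in WT (-2.25, adjusted p = 0.0017), and *RAG1*, the lymphocyte recombinase, had 128, 134 and 140 in Mut and 172, 195 and 189 in WT (-0.46, adjusted p = 0.0357). Of 33 neuronal genes 5 passed, all lower, with a median of -0.07. The lowest was *cbln8*, of the cerebellin family of synaptic organizers, with 5, 4 and 9 in Mut and 123, 104 and 112 in WT (-4.09, standard error 0.28, adjusted p = 4.05e-05), and the tubulin *tubb5* had 3379, 3792 and 3381 in Mut and 4778, 5141 and 4863 in WT (-0.49, adjusted p = 0.00378). With any single pool left out 1 of the immune genes passed, and without WT2 or any Mut pool 3 of the neuronal ones. The others were *cbln12* (-0.93), the synaptic vesicle protein *sypb* (-0.29) and the tubulin *tuba1b* (-0.27).

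Genes of growth outside the mitochondria had small fold changes. Of 79 cytosolic ribosomal protein genes 0 passed, although 78 had a positive log2 fold change, and the median was 0.14. Ribosome biogenesis genes gave 16 of 62 passed, all higher, with a median of 0.25, led by *npm1a*, nucleophosmin, with 3673, 4116 and 3983 in Mut and 2779, 2425 and 2391 in WT (0.63, adjusted p = 0.00145). Without Mut2 3 passed and without Mut3 4. Of 62 genes of replication and mitosis 5 passed higher and 1 lower, with a median of 0.11. The higher ones were the replication genes *GINS4* (0.55), *RFC4* (0.45), *pola2* (0.43), *mcm4* (0.36) and *pcna* (0.34), and the lower one was *bub1bb*, a kinase of the mitotic checkpoint (-0.59), which did not pass with any single pool left out. Proteasome subunits gave 5 of 41 passed, all higher, with a median of 0.18: *PSMB7* (0.37), *psma5* (0.33), *psmd11b* (0.31), *PSMA4* (0.28) and *psmb6* (0.26). Without Mut2, Mut3 or WT1 0 proteasome and 0 higher replication genes passed, and without WT3 1 of each did. Without WT2 1 proteasome gene passed, and without Mut1 3 did.

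Single genes of hormone and growth signalling stood apart from their lists. A copy of *cishb*, the feedback inhibitor induced by growth hormone signalling, was the one call of 24 genes of growth hormone and insulin signalling (median -0.07), *cishb (ENSDARG00000096988)* having 26, 59 and 22 in Mut and 165, 137 and 128 in WT (-2.10, adjusted p = 0.00379), and the leptin receptor gene *lepr* passed at 0.34. *higd1a*, an inner membrane protein of the respiratory chain and the single gene of 27 in the hypoxia list (median 0.03) that passed higher, had 946, 1234 and 1050 in Mut and 573, 533 and 628 in WT (0.89, adjusted p = 0.00103), and *MXI1*, a MAX partner, passed lower (-0.33). Of 30 circadian genes 2 passed, both lower, with a median of -0.12, *nfil3-5* at -0.46 and *hlfa* at -0.29. Of 49 autophagy and lysosome genes 2 passed, both higher, with a median of -0.02, *NPC1* at 0.37 and *ctsla* at 0.35. Of all tested genes 3.82% passed higher and 2.17% lower. The shares of autophagy, hypoxia and growth hormone genes that passed higher lay near the share of all tested genes. Without Mut2 or Mut3 0 circadian and 0 higher autophagy genes passed, and without WT1 or WT2 1 of each did. The circadian count was also 1 without Mut1 or WT3. *lepr* did not pass without Mut2, Mut3 or WT3, nor *MXI1* without WT1, WT2 or any Mut pool. In the yolk and lipoprotein list, of 26 genes with a median of -0.20, *lipca*, the hepatic lipase, was lower, with 17, 10 and 14 in Mut and 67, 55 and 84 in WT (-2.26, adjusted p = 8.61e-04), and *vtg7*, a vitellogenin, was higher, with 34, 32 and 34 in Mut and 3, 3 and 7 in WT (2.77, adjusted p = 0.00147), while *LPL (ENSDARG00000087697)*, lipoprotein lipase, stood at -0.39 (adjusted p = 0.0465). Genes of this list that passed lower numbered 5 without WT2 and 1 without Mut1, Mut2 or WT3, and 3 passed higher without WT3.

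Of the called genes 103 stood in at least 1 list and 157 in none, and several in none had high or low fold changes. *pmt*, a phosphoethanolamine methyltransferase that makes the choline head group, had 565, 514 and 379 in Mut and 42, 62 and 90 in WT (2.94, standard error 0.24, adjusted p = 1.41e-04). *ociad2*, an inner membrane protein, had 1177, 1117 and 1170 in Mut and 279, 211 and 325 in WT (2.11, standard error 0.13, adjusted p = 2.63e-05). *g0s2*, an inhibitor of triglyceride lipase, had 188, 202 and 158 in Mut and 29, 40 and 51 in WT (2.19, adjusted p = 2.62e-04). For these 3 genes every Mut pool stood at over 3 times the highest WT pool.

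The transcription factor gene *tfcp2l1* had 303, 354 and 458 in Mut and 72, 56 and 120 in WT (2.21, adjusted p = 8.28e-04). *scpp5*, a phosphoprotein of mineralizing tissue, had 193, 188 and 154 in Mut and 38, 23 and 77 in WT (2.09, adjusted p = 0.00624), and *TM6SF2*, which in mammals helps to load lipid onto secreted lipoproteins, had 222, 198 and 167 in Mut and 63, 36 and 68 in WT (1.84, adjusted p = 0.00134). WT3 was the highest WT pool for each of these 3. It lay below the lowest Mut pool, which the rule for naming these genes required. Among the falls outside the lists *upp2*, a uridine phosphorylase, had 21, 57 and 67 in Mut and 446, 265 and 351 in WT (-2.97, adjusted p = 0.00128), and *cbln9* had 4, 16 and 19 in Mut and 122, 103 and 105 in WT (-3.21, adjusted p = 0.00238). A pair of neighbouring names without a known role, *si:dkey-14d8.7* and *si:dkey-14d8.6*, stood at -3.14 and -2.48.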

How the data were processed

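Values of 6 libraries from pools of 5 larvae were used, 3 Mut and 3 WT, grouped by their labels. The authors trimmed paired reads of stranded mRNA libraries (Trimmomatic 0.33), aligned them to GRCz10 (STAR 2.4.0a), and assigned them to Ensembl genes (featureCounts 1.4.5-p1), leaving out reads with several alignments or genes, so paralogs and overlapping genes are less certain. The deposited score is a read count scaled by library and rounded by the authors, called a normalized value here. The 8 dpf samples were not used here.

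Limma 3.58.1 in R 4.3.3 was run on log2(value + 1) with genotype as the single term, a mean-variance trend in eBayes, two-sided tests, 10.2 total degrees of freedom and Benjamini-Hochberg adjustment over 22521 genes. All adjusted p values come from this fit. Figures were drawn with matplotlib 3.10.9 in Python 3.11.15. Tested on simulated data with 3 pools a group, the fit called 99 of 100 genes changed by 1.5 and 100 of 100 changed by 2.5 (log2), with 5 false calls among 22416 genes. The simulation gave every gene the same spread between pools (dispersion 0.02), drew the pools independently and changed no gene of low mean. Its counts therefore check the fit and do not give the error rate of these data. Symbols came from the supplementary tables (4303 tested genes) or the reference gene names (16625), and the primers from the study's primer table.

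Genes were named by rule: the 12 highest and 12 lowest called genes with a symbol, a mean of at least 50 and no overlap, up to 4 members of each of 52 lists with the smallest adjusted p, and *chchd4a*, *chchd4b*, *rbp2b*, *cp* and *try*. The results of 1 list and of some single genes are not reported here. Members, lists and rules were chosen with earlier results of these data known. Other named genes, among them those given as not having passed, were chosen after their values were seen. Alternatives were other pseudocounts, filters, scalings and thresholds, no trend, voom weights, a replicate block and leaving out each pool.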

Additional observations from a re-analysis of the deposited data

How the results depend on the processing

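The 260 calls (137 higher, 123 lower in Mut) numbered between 239 and 265 with a pseudocount of 0.5 or 5, no filter, a minimum mean of 20, other library scalings or voom weights, and 179 at an adjusted p under 0.01. Scaling to the same total gave 126 higher and 126 lower. Without the trend there were 159 calls, 87 higher and 72 lower, 153 of them among the 260. Without the fold threshold there were 1350, 861 higher and 489 lower. With a pool left out, calls ran from 183 without Mut2 to 344 without WT3, the higher ones from 91 without Mut2 to 223 without WT3, and the lower ones from 92 without Mut2 or WT1 to 146 without WT2. Genes that passed numbered 482 without Mut2, 533 without Mut3 and 344 without the trend. Mut and WT pools with the same number deviated with correlations of -0.28, -0.19 and -0.096 over 17494 genes, so they did not deviate alike. Mut and WT pools with different numbers were not compared in this way. The replicate block gave 214 calls (111 higher, 103 lower), 211 of them among the 260, and 616 that passed. Of 183 named genes, 83 no longer passed their threshold without the trend, 48 with the block and between 16 and 59 with a pool left out, and no gene that passed reversed its sign. *pck1* (-0.09) and *hbae3* (-0.10), which did not pass, ran from -0.43 to 0.14 and from -0.28 to 0.07 with a pool left out. The cause was not tested. Values rest on 3 pools a group, and low values carry few reads.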

Other observations

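Some gene families stood out and were chosen after their values were seen. Of 15 tested genes of the cerebellin family, secreted proteins related to synaptic organizers, 6 passed, all lower in Mut and all called, and the median was -0.53. Besides *cbln8* and *cbln9*, *cbln14* had 8, 7 and 11 in Mut and 46, 40 and 63 in WT (-2.39, adjusted p = 9.46e-04), while *CBLN1* had 786, 805 and 788 in Mut and 847, 864 and 739 in WT (-0.04, adjusted p = 0.836). Of 9 genes of the cytochrome P450 family *cyp2aa*, 4 were called, all higher, and the median was 0.52. *cyp2aa7* had 180, 155 and 195 in Mut and 32, 71 and 55 in WT (1.79, adjusted p = 0.00271), and *cyp2aa4*, *cyp2aa9* and *cyp2aa8* stood at 1.53, 1.52 and 1.32. The authors did not count reads that align to several copies, which makes the values of single members uncertain.

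The actinodins, structural proteins of the larval fin fold, all passed lower. *and3* had 1330, 1171 and 1003 in Mut and 2671, 2845 and 1578 in WT (-0.98, adjusted p = 0.0163), and *and1* and *and2* stood at -0.88 and -0.65. WT3 was the lowest WT pool for each. *col10a1a*, a collagen of skeletal tissue, had 1814, 1614 and 1363 in Mut and 3236, 3405 and 2450 in WT (-0.92, adjusted p = 0.00352).

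Genes on the chromosome of *chchd4a* were counted by their order in the RefSeq annotation of GRCz12tu, in which 15878 tested genes were placed by name. Of 545 on that chromosome, *chchd4a* left out, 13 were called (2.39%), and of 15332 on other chromosomes 189 were (1.23%), with single chromosomes between 0.455% and 2.58%. Within 25 placed genes on either side of *chchd4a* 0 of 50 were called, within 50 4 of 100 (4%) and within 100 6 of 200 (3%), among the last *NINJ1*, with 11, 12 and 14 in Mut and 67, 67 and 71 in WT (-2.38, adjusted p = 1.66e-04), *ugt1b4* (3.19) and *itih3b* (-3.22). Whether alleles linked to the mutation differ between the groups was not tested.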
